A study of Arabidopsis thaliana with 12 samples.

Results

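The 60 brightest array probes that the platform annotation assigns to several Arabidopsis thaliana genes at once were compared between bright and dim blue light. They were selected on mean deposited intensity over all 12 columns of the value table, from 870 shared probes among 3439 probes in all. The remaining probes were 692 that named 1 gene and 1877 that the annotation did not list. Total RNA came from wild-type plants of the Landsberg ecotype, 6 samples after 48 h at 200 µE and 6 after 48 h at 20 µE of blue light, µE being a common shorthand for photon flux. The labels leave tissue, age, growth conditions and how many plants were sampled unstated, and nothing says that the samples came from separate plants, so p-values measure only the spread between these samples. In bulk RNA, fewer cells of a type and less RNA per cell cannot be told apart.

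Most Arabidopsis gene families grew by duplication of single genes, of chromosome segments or of the whole genome, and recent copies remain similar over long stretches of their transcripts. A probe placed in such a stretch can hybridise to the transcript of each copy. The signal of every probe described here may therefore come from any gene it names, from one of them or from several, and these data do not divide it. Blue light is read in this plant by cryptochromes and phototropins, and its intensity also sets the energy that reaches the chloroplast, where leaves respond by adjusting photosynthesis, photoprotection and growth.

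Together the 60 probes named 139 genes, and no gene was named by more than 1 of them. Of these probes, 45 named 2 genes, 11 named 3 and 4 named 4. Genes on more than 1 chromosome were named by 43 of the 60 (71.7%). Among the other 810 shared probes, 805 had all their genes among the protein-coding genes of the gene table, and the share of these was 71.7%. A pair of neighbouring genes, in the order of protein-coding genes of the TAIR10.1 assembly, was named by 9 of the 60 (15.0%), against 11.8% of the same 805. In 4 probes all the named genes lay side by side: CSLC12/AT4G07950/AT4G07940, AT5G53270/AT5G53260, AT4G36195/AT4G36190 and AT4G05630/AT4G05620. Gene names were taken from gene symbols and, among the synonyms of the gene table, only from those that begin with CURT or HISN. They covered 9 of the 60 probes. The other 51 are described by locus, without a family name, and other synonyms of their genes were not looked up.

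Named families covered several parts of plant biology. In the chloroplast they were rubisco activase (RCA, which frees inhibited rubisco of bound sugar phosphates), the CURT1 proteins that bend thylakoid membranes at the margins of grana (AT4G38100 and AT4G01150, CURT1D and CURT1A), and the DEAD-box RNA helicase RH39, which acts on chloroplast ribosomal RNA. Metabolic enzymes were HISN5B and IGPD, both imidazoleglycerol-phosphate dehydratases of histidine synthesis, 4CL8, a ligase of the coumarate:CoA ligase family, and CSLC12, a cellulose synthase-like protein of the family that makes the glucan backbone of xyloglucan. Regulators were IAA20, IAA30 and IAA31, Aux/IAA repressors of auxin-responsive transcription, UFO, an F-box protein of flower development, and ELC with ELC-Like, components of the ESCRT-I complex that sorts ubiquitinated membrane proteins.

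In the whole table the median intensity of a column was 0.195 ± 0.023 units at 200 µE and 0.504 ± 0.088 units at 20 µE (SD, n = 3 couple means each, arbitrary units). Exact zeros made up 17.3% of a column at 200 µE and 13.0% at 20 µE, and none of the 60 probes had one. Neighbouring columns (1 with 2, 3 with 4, 5 with 6) deviated together within their group, so each such couple was averaged and counted as 1 value. Changes were taken after quantile normalisation, as log2 at 200 µE minus log2 at 20 µE, and tested with limma over the 3175 probes that had a value above 0 in at least 1 column. "Rose" and "fell" are used only of probes with an adjusted p under 0.05 over couple means and also over the 12 columns, in the same direction.

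The brightest of the 60 stood in place 2 among all probes and the last in place 298. The members' mean intensity over the 12 columns was above 10 units for 6, between 2 and 10 units for 38 and at most 2 units for 16. The last inside, AT3G66654/AT2G47320, averaged 1.58 units, and the first outside, AT4G21460/AT3G18240, averaged 1.55 units, with 2.04 at 200 µE and 1.06 at 20 µE. These levels chose the members and are given as a description. A single value reached the upper end of the scale, that of the CSLC12 probe in column 3 at 20 µE, and it is a bound.

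The selection also bears on the changes. For 42 probes the mean intensity in both groups was at or above the mean of the last member. For 9 the mean at 20 µE was below it, so that they reached the set through the bright-light columns, and for 9 the mean at 200 µE was below it, so that they reached the set through the dim-light columns. A difference between the groups is built into these 18.

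As a group, the 60 probes held 12.6 ± 1.09% of a column's summed intensity at 200 µE and 10.8 ± 0.751% at 20 µE (SD, n = 3 couple means each). Columns ranged from 11.3 to 13.5% at 200 µE and from 9.82 to 11.6% at 20 µE, so the groups overlapped at the edge. Without the 2 brightest members the shares were 8.12 ± 0.356% at 200 µE and 7.26 ± 0.847% at 20 µE. The other 810 shared probes held 7.71 ± 0.658% at 200 µE and 13.3 ± 1.49% at 20 µE, with no overlap between columns. Shares were not tested.

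Of the 60 probes, 8 rose at 200 µE (13.3%) and 6 fell (10%), 14 in all (23.3%). Among all 3175 probes tested, 14.0% were called higher, 13.2% lower and 27.2% either way by the same rule. The share over the 60 was near that background. However, 10 of the 14 calls were among the 18 probes with a built-in difference, and 4 among the other 42. The share is therefore not read as a result about the members. Without columns 1 and 2 of both groups limma called 0 of the 60 (11 at an unadjusted p under 0.05), against 1.01% of all probes tested. It called 3 without columns 3 and 4, against 2.8%, and 9 without columns 5 and 6, against 26.9%. Of the 42 probes whose means lay at or above the last member's in both groups, 2 rose and 2 fell; of the 18 others, 6 rose and 4 fell. The median change of the 60 was -0.14 on the log2 scale, against -0.03 over all probes tested. Over the 12 columns taken as independent, 28 of the 60 passed, 11 higher and 17 lower, against 53.1% of all probes tested. Normalised columns of the groups did not overlap for 19 of the 60 (35.0% of all probes tested), and deposited columns for 23 (50.6% of all probes tested).

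How columns are scaled decides part of this. The median change over all probes was -1.19 without normalisation and 0.16 after median centring. Without normalisation 8 of the 60 were called higher and 7 lower over couple means, against 5.57% and 50.0% of all probes tested. After median centring limma called 43 higher and 0 lower (46 and 0 at an unadjusted p under 0.05), against 26.8% and 20.7% of all probes tested; on that scale the median change of the 60 was 1.35. All 8 rises were called under each of the 3 scalings. All 6 falls were called without normalisation and none after median centring, where 3 of them had a positive change. Below, falls are given relative to the quantile-normalised distribution.

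The auxin repressor probe IAA30/IAA31/IAA20 rose in bright light. Its deposited intensity had a lowest, median and highest column of 1.77, 2.55 and 3.07 units at 200 µE, against 0.660, 0.907 and 1.13 units at 20 µE. The groups did not overlap. Its mean at 20 µE, 0.894 units, was below the last member's, so a difference between the groups was built into its selection. The log2 change was 1.81 ± 0.28 (SE, n = 3 couple means each), with an adjusted p of 0.0058. A second probe that names IAA31 alone also rose, with a mean of 1.5 ± 0.724 units at 200 µE and 0.690 ± 0.126 units at 20 µE (SD, n = 3 couple means each) and a log2 change of 1.63 ± 0.33 (adjusted p = 0.014). The deposited columns of this IAA31 probe overlapped, with a lowest of 0.703 units at 200 µE and a highest of 0.776 units at 20 µE. A further probe, for IAA30 and IAA20 without IAA31, was listed at 0 in 4 of 6 columns at 200 µE and in 6 of 6 at 20 µE, and did not pass (adjusted p = 0.18).

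The ESCRT-I probe ELC-Like/ELC rose as well. Its columns had a lowest, median and highest intensity of 3.43, 9.10 and 9.75 units at 200 µE, against 1.42, 2.2 and 3.21 units at 20 µE. In deposited units all bright-light columns lay above all dim-light ones, but after normalisation the groups overlapped, with a lowest log2 value of 1.72 at 200 µE against a highest of 1.89 at 20 µE; it was the 1 called probe of which this was so. The log2 change was 1.69 ± 0.48 (adjusted p = 0.042). Without column 6 at 200 µE the adjusted p was 0.089, and without column 5 at 20 µE it was 0.076. A second probe, which names AT2G38830 in addition to ELC-Like and ELC, averaged 0.274 ± 0.139 units at 200 µE and 0.698 ± 0.151 units at 20 µE. Its log2 change of -0.30 ± 0.38 did not pass (adjusted p = 0.59). In deposited units all its bright-light columns (0.140 to 0.438) lay below all its dim-light ones (0.586 to 0.889), opposite to the member. Without normalisation its change was -1.46, against a median of -1.19 over all probes.

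Among probes described by locus only, AT4G05630/AT4G05620, a pair of neighbouring genes, had the highest change of the 60. Its lowest, median and highest columns were 2.24, 3.07 and 3.50 units at 200 µE, against 0.264, 0.306 and 0.704 units at 20 µE, and its log2 change was 3.56 ± 0.42 (adjusted p = 0.0025). AT1G50660/AT1G11690/AT3G20350 followed, with 3.04, 3.41 and 3.55 units at 200 µE, against 0.311, 0.437 and 0.717 units at 20 µE, and a log2 change of 3.41 ± 0.31 (adjusted p = 0.0011). AT1G76620/AT1G43020/AT1G21065/AT1G21060, which names neighbours and more distant loci of chromosome 1, had 3.27, 3.78 and 3.91 units at 200 µE, against 0.345, 0.424 and 0.880 units at 20 µE (log2 change 3.38 ± 0.36, adjusted p = 0.0019). In these 3 the columns of each group lay far apart and no column came near the other group. Each was also among the probes whose mean at 20 µE was below the last member's.

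AT1G70990/AT1G23040/AT1G02405 was the fourth rise above 2 on the log2 scale. It had a lowest, median and highest column of 4.02, 4.38 and 5.58 units at 200 µE, against 0.492, 1.01 and 1.42 units at 20 µE (log2 change 2.58 ± 0.37, adjusted p = 0.0044). AT5G03320/AT3G09830 had 1.79, 4.09 and 4.37 units at 200 µE, against 0.815, 1.08 and 1.70 units at 20 µE (log2 change 1.74 ± 0.38, adjusted p = 0.018). Its groups came close to each other, and without column 5 at 20 µE the adjusted p was 0.070. AT1G78140/AT2G41040 had 9.26, 10 and 13.7 units at 200 µE, against 3.15, 4.17 and 5.50 units at 20 µE (log2 change 1.15 ± 0.30, adjusted p = 0.031). It and the ELC probe were the rises whose mean lay above the last member's in both groups. For AT1G70990/AT1G23040/AT1G02405 and AT5G03320/AT3G09830 the mean at 20 µE was below the last member's, so a difference was built into their selection.

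The UFO/AT5G15710 probe fell. Its lowest, median and highest columns were 0.713, 0.889 and 1.22 units at 200 µE, against 1.78, 2.24 and 3.02 units at 20 µE. Every bright-light column was below every dim-light one. The mean at 200 µE, 0.939 units, was below the last member's, so a difference between the groups was built into its selection. The log2 change was -1.21 ± 0.35 (adjusted p = 0.042), it was 0.05 after median centring, and the adjusted p was 0.053 without column 2 at 20 µE. UFO is known for its part in flowers, and a label for the tissue is lacking, so whether UFO or AT5G15710 gave the signal was not tested.

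The other 5 falls were in probes described by locus only. AT1G06890/AT2G30460 had a lowest, median and highest column of 3.64, 4.2 and 4.75 units at 200 µE, against 8.74, 9.84 and 18.0 units at 20 µE (log2 change -1.74 ± 0.31, adjusted p = 0.0091). AT5G59410/AT2G29020 had 0.721, 0.757 and 0.852 units at 200 µE, against 2.41, 2.87 and 3.34 units at 20 µE (log2 change -1.72 ± 0.29, adjusted p = 0.0074). In both, the dim-light columns were far above the bright-light ones and varied more. AT1G06890/AT2G30460 and AT5G03560/AT4G38150, given next, were the falls whose mean lay above the last member's in both groups. For AT5G59410/AT2G29020 the mean at 200 µE, 0.773 units, was below the last member's, so a difference was built into its selection. After median centring the changes of the first 2 probes were -0.13 and -0.52.

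AT1G01570/AT4G00295 had a lowest, median and highest column of 1.18, 1.32 and 1.4 units at 200 µE, against 1.89, 2.87 and 3.50 units at 20 µE (log2 change -1.12 ± 0.28, adjusted p = 0.028). AT5G03560/AT4G38150 had 1.70, 1.90 and 2.18 units at 200 µE, against 2.59, 4.08 and 4.78 units at 20 µE (log2 change -1.11 ± 0.33, adjusted p = 0.045). The bright-light columns of both were tight and below all dim-light ones, while after median centring the changes were 0.31 and 0.41.

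AT1G71970/AT1G22680 had the lowest change among the called probes but the least firm call. Its lowest, median and highest columns were 0.264, 0.751 and 0.898 units at 200 µE, against 1.49, 2.85 and 4.36 units at 20 µE. The mean at 200 µE, 0.638 units, was below the last member's, so a difference between the groups was built into its selection. The log2 change was -1.80 ± 0.54 (adjusted p = 0.048). It passed without 1 of the 12 columns only, column 2 at 20 µE, and the adjusted p reached 0.068 without column 6 at 200 µE. A second probe for the same gene pair also fell, by 3.64 ± 0.91 on the log2 scale (adjusted p = 0.027). That probe was listed at 0 in 3 of 6 columns at 200 µE and averaged 0.701 ± 0.185 units at 20 µE (SD, n = 3 couple means).

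Of the 10 brightest probes, 1 fell, AT1G06890/AT2G30460, and 9 did not pass over couple means. The cell wall probe CSLC12/AT4G07950/AT4G07940 had a lowest, median and highest column of 61.3, 72.6 and 96.3 units at 200 µE, against 57.8, 70.2 and 100 units at 20 µE, where the last is the bound named above. Its groups overlapped almost wholly, and the log2 change was -0.52 ± 0.29 (adjusted p = 0.22 over couple means and 0.019 over the 12 columns). AT5G51520/AT4G25250 had 45.8, 65.2 and 74.9 units at 200 µE, against 29.6, 39.0 and 77.2 units at 20 µE (log2 change -0.34 ± 0.34, adjusted p = 0.49). Without normalisation the change was positive for this probe (0.43) and for the CSLC12 probe (0.089), so the sign of both depends on the scaling. AT4G22850/AT4G12000 had 29.5, 31.3 and 43.5 units at 200 µE, against 19.7, 21.0 and 25.3 units at 20 µE. Its deposited columns did not overlap, yet the normalised log2 change was 0.28 ± 0.25 (adjusted p = 0.44).

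The next probes in brightness varied more between columns. AT1G59850/AT1G27210/AT5G62580/AT2G07170 had a lowest, median and highest column of 4.96, 12.3 and 16.7 units at 200 µE, against 6.55, 22.1 and 38.3 units at 20 µE. It had the largest standard error of the 60 (log2 change -1.14 ± 0.76, adjusted p = 0.30), and with the couple of replicate numbers as a block the adjusted p was 0.037. AT4G24026/AT4G10810 had 6.13, 7.71 and 12.2 units at 200 µE, against 12.5, 14.2 and 18.1 units at 20 µE, with no overlap (log2 change -0.98 ± 0.33, adjusted p = 0.068). It passed over the 12 columns (adjusted p = 0.0015) but not over couple means.

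The other 4 of the 10 brightest had overlapping groups. AT1G70160/AT5G54870/AT4G27020 averaged 14.0 ± 4.18 units at 200 µE and 14.4 ± 4.28 units at 20 µE (SD, n = 3 couple means each). AT1G08845/AT5G27820/AT3G20230 averaged 7.62 ± 2.16 units at 200 µE and 10.4 ± 2.27 units at 20 µE. AT5G08720/AT4G01650 averaged 8.22 ± 1.56 units at 200 µE and 7.65 ± 2.29 units at 20 µE. In each of these the columns of one group ran into those of the other. AT5G66000/AT4G35510/AT2G17540 averaged 6.64 ± 0.990 units at 200 µE and 8.99 ± 1.81 units at 20 µE. The changes of the 4 were -0.21 ± 0.38, -0.63 ± 0.31, -0.02 ± 0.29 and -0.65 ± 0.32 on the log2 scale in that order, and the second and the fourth passed over the 12 columns only (adjusted p = 0.018 and 0.013).

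None of the 3 probes listed above under the chloroplast passed both tests. The other probes, HISN5B/IGPD among them, were not assigned to a cell compartment, so chloroplast proteins may be among them too. The rubisco activase probe AT1G73110/RCA had a lowest, median and highest column of 0.898, 1.4 and 2.04 units at 200 µE, against 0.989, 1.78 and 2.84 units at 20 µE (log2 change -0.05 ± 0.60, adjusted p = 0.96). A second probe for AT1G73110 and RCA was listed at 0 in every column. The thylakoid curvature probe AT4G38100/AT4G01150 averaged 2.22 ± 0.267 units at 200 µE and 1.46 ± 0.321 units at 20 µE; its change of 0.75 ± 0.40 did not pass over couple means (adjusted p = 0.21) and did over the 12 columns (adjusted p = 0.030). RH39/AT3G06980 averaged 1.83 ± 0.433 units at 200 µE and 2.02 ± 0.219 units at 20 µE, with overlapping columns.

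Of 142 genes in 9 lists of photosynthesis and plastid functions, 10 had a probe of their own, of which 1 rose and 9 did not pass, against 27.2% called either way among all probes tested. It was PRK, phosphoribulokinase of the Calvin cycle, which averaged 0.761 ± 0.192 units at 200 µE and 0.600 ± 0.069 units at 20 µE. Its log2 change was 1.22 ± 0.33 (adjusted p = 0.034), and 0.32 without normalisation. Among 7 shared probes tested that name a gene of these lists, 2 rose and 5 did not pass, beside the same 27.2%, and the RCA probe was the 1 that is among the 60.

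The histidine and ligase probes had overlapping columns in both lights. HISN5B/IGPD averaged 2.1 ± 0.421 units at 200 µE and 2.12 ± 0.419 units at 20 µE, a log2 change of -0.07 ± 0.35. AT1G20500/4CL8 averaged 2.60 ± 0.662 units at 200 µE and 1.90 ± 0.980 units at 20 µE, a log2 change of 0.47 ± 0.48. Neither passed over couple means or over the 12 columns, and in both the SE was larger than the change.

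Over all 46 probes that did not pass, changes ran from -1.14 to 1.36 on the log2 scale, and 26 of them were smaller than 0.5 in size. The highest was that of AT1G73610/AT1G23500, with a lowest, median and highest column of 2.77, 3.16 and 3.56 units at 200 µE, against 0.244, 1.93 and 2.13 units at 20 µE (log2 change 1.36 ± 0.68, adjusted p = 0.18). Columns 5 and 6 at 20 µE, with 0.771 and 0.244 units, were far below the other dim-light columns there. AT4G36195/AT4G36190, a pair of neighbours, lay nearest the threshold (log2 change -0.98 ± 0.31, adjusted p = 0.055), and the adjusted p was 0.048 without column 5 at 200 µE and 0.0499 without column 5 at 20 µE. The mean of this probe at 200 µE (1.16 units) was below the last member's, as was that of AT1G73610/AT1G23500 at 20 µE (1.51 units). A difference between the groups was built into the selection of both.

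In all, 14 probes passed over the 12 columns but not over couple means, 3 higher and 11 lower. The 3 higher were the CURT1 probe and 2 described by locus. AT4G26310/AT3G08740 averaged 6.82 ± 1.93 units at 200 µE and 3.93 ± 0.969 units at 20 µE, and AT1G49000/AT3G18560 averaged 2.65 ± 0.799 units at 200 µE and 1.73 ± 0.280 units at 20 µE. Their log2 changes were 0.50 ± 0.32 and 0.53 ± 0.28. The deposited columns of the first did not overlap, and those of the second did.

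Of the 11 lower, 5 are described above. AT5G58990/AT5G52370 averaged 2.1 ± 0.125 units at 200 µE and 3.08 ± 0.783 units at 20 µE, with columns apart (log2 change -0.69 ± 0.30, adjusted p = 0.13). AT1G73750/AT1G15060 averaged 3.68 ± 1.14 units at 200 µE and 4.74 ± 1.17 units at 20 µE (log2 change -0.71 ± 0.32, adjusted p = 0.14). The remaining 4 had changes from -0.60 to -0.39 on the log2 scale. They were AT1G55340/AT3G03880 (-0.60), AT5G44310/AT4G21020 (-0.59), AT3G33528/AT3G33530/AT2G26610 (-0.58) and AT3G51090/AT2G16460 (-0.39). In deposited units the columns of all 4 overlapped between the groups.

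Probes that passed neither test included several with close group means. AT4G22030/AT4G04480 averaged 7.09 ± 0.337 units at 200 µE and 7.11 ± 1.09 units at 20 µE. AT5G27300/AT2G27800/AT2G27790 averaged 4.03 ± 1.26 units at 200 µE and 4.0 ± 0.389 units at 20 µE. AT2G31100/AT2G19940 averaged 2.11 ± 0.0538 units at 200 µE and 1.99 ± 0.220 units at 20 µE. The last had the smallest change of the 3, 0.03 ± 0.30 on the log2 scale; the others changed by -0.25 ± 0.29 and -0.39 ± 0.33.

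Among the probes not yet described, changes above 0 that passed neither test were those of AT1G08120/AT5G26110 (log2 change 0.50 ± 0.34), AT1G18270/AT4G20930 (0.28 ± 0.26), AT3G07510/AT2G01580 (0.27 ± 0.34), AT1G23640/AT1G23660/AT1G23610/AT2G27670 (0.18 ± 0.47), AT4G20840/AT4G20830 (0.15 ± 0.30) and AT2G43865/AT3G59850/AT2G43870/AT2G43860 (0.02 ± 0.29), with the neighbours AT5G53270/AT5G53260 at 0.54 ± 0.54. In AT1G08120/AT5G26110, with 2.4 to 4.4 units at 200 µE against 1.69 to 2.39 units at 20 µE, and in AT1G18270/AT4G20930, with 5.45 to 8.18 units at 200 µE against 3.4 to 4.66 units at 20 µE, the deposited columns did not overlap and the normalised ones did. The probe AT2G43865/AT3G59850/AT2G43870/AT2G43860 names 3 neighbouring or near loci of chromosome 2 and 1 of chromosome 3.

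The other changes below 0 that passed neither test ran from -0.61 to -0.06. The lowest were those of AT2G44400/AT2G42060/AT2G27660 (log2 change -0.61 ± 0.40), AT4G30170/AT2G18980 (-0.59 ± 0.38), AT5G44540/AT4G20420 (-0.51 ± 0.39), AT1G02060/AT2G37230 (-0.46 ± 0.31) and AT4G00165/AT2G45180 (-0.37 ± 0.32). Those nearest 0 were AT5G66800/AT3G50640 (-0.27 ± 0.38), AT1G44224/AT3G50570 (-0.15 ± 0.42), AT5G35660/AT2G26500 (-0.14 ± 0.29), AT1G12330/AT5G12900 (-0.14 ± 0.44), AT5G56220/AT4G23440 (-0.09 ± 0.27), AT3G66654/AT2G47320 (-0.07 ± 0.35) and AT5G66500/AT4G39952/AT3G03580 (-0.06 ± 0.33). Each of these 12 turned positive after median centring.

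Among the 60, 20 had another probe that names at least 1 of their genes, 22 other probes in all. Of these, 20 name several genes and were ranked by the same rule but fell outside the 60, and 2 name 1 gene and were not ranked. In 10 of the 22 the named genes were the same as the member's. In every column 4 of the 22 were at 0, 3 of them with the same gene set as the member, among them the second RCA probe. Of the 18 tested, 10 changed in the sign of the member and 8 in the other, and 1 rose and 4 fell, 27.8% called against 27.2% of all probes tested. The member was called in 5 of the 18 pairs and both probes were called in 2, those for IAA31 and for AT1G71970/AT1G22680. Signs of probes with zeros depend on the value that replaced them, 0.0040 to 0.0087 units at 200 µE and 0.019 to 0.047 units at 20 µE. The second AT5G56220/AT4G23440 probe was at 0 in 2 columns at 200 µE and in all 6 at 20 µE, yet its change was -1.51. For the second AT1G73750/AT1G15060 probe, also with zeros, the change was 0.64, and -1.77 without normalisation.

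In 4 further pairs, and in that of the IAA30 and IAA20 probe given above, both probes changed in the same direction after quantile normalisation and only 1 was called. The difference between the probes was not tested. The probe CSLC5/CSLC12/CSLC04/ATCSLC08, which names 4 members of the CSLC family, averaged 0.0702 ± 0.0318 units at 200 µE and 1.02 ± 0.339 units at 20 µE and fell by 2.57 ± 0.33 on the log2 scale (adjusted p = 0.0031), while the bright CSLC12 probe did not pass. The other probe with CSLC12, AT4G07990/CSLC12/AT4G07950/AT4G07940, had a change of 0.58 ± 0.28, opposite in sign to the member's, that did not pass (adjusted p = 0.17). A probe for AT1G08845 alone fell by 2.92 ± 0.64 (adjusted p = 0.018), and one for AT3G33530 and AT2G26610 fell by 2.0 ± 0.33 (adjusted p = 0.0070); the members that name these genes did not pass. A probe for BLT, AT1G50660 and AT3G20350 had a change of 0.81 ± 0.47 that did not pass (adjusted p = 0.23), where the member AT1G50660/AT1G11690/AT3G20350 rose by 3.41. The second probes name partly other genes, and whether they detect the same transcripts was not tested.

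Standard errors of the 60 changes had a median of 0.33 on the log2 scale (0.25 to 0.76), against 0.38 over all probes tested. The spread between couples had a median SD of 0.28 for the 60 at 200 µE and 0.41 at 20 µE, against 0.31 at 200 µE and 0.53 at 20 µE over all probes tested. The median spread of the 60 was the smaller one in each group, and in both sets it was larger at 20 µE than at 200 µE.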

How the data were processed

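Total RNA of 12 samples (6 at 200 µE, 6 at 20 µE) was measured on arrays. What the authors deposited is one linear intensity per probe and sample, in arbitrary units. How it was scanned, background-corrected or scaled is not given in the sources used here. The deposited intensity holds exact zeros and stops just below 100, so values at either end are bounds. Probes were named through the platform annotation and the TAIR10.1 gene table, in which all 139 genes were found. Gene coordinates were used only to order protein-coding genes along the chromosomes, and no sequences were used.

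Zeros took the value of the 1st percentile of the positive values in their column, log2 was taken, and columns were quantile-normalised over all 3439 probes. The 264 probes at 0 in every column were left out, and 3175 were tested with limma 3.58.1 in R 4.3.3 (lmFit, eBayes, two-sided, Benjamini-Hochberg adjustment) on means of columns 1 and 2, 3 and 4, and 5 and 6 (n = 3 against 3); the code was tested on simulated data. Alternatives were other normalisations, 12 columns, blocks, zeros, filters, a variance trend, a threshold of 0.01, other rankings and columns or couples left out.

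Correlations of deviations from the group mean were 0.144 to 0.748 for neighbours of a group, -0.56 to 0.071 for other columns of it, and 0.157 to 0.485 for equal numbers in both groups. Neighbouring columns within a group were therefore averaged. Equal numbers in both groups were not paired in the main fit, so its p-values leave out that pairing. They were paired only in the alternatives with a block. The labels do not say what the numbers mark. Levels and changes are given for the 10 brightest members and for up to 8 rises and 8 falls; other probes were named after their values were seen. The members, lists and tests were chosen with earlier results of these data known. The number of arrays limits the precision.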

Additional observations from a re-analysis of the deposited data

Results flagged for a closer look

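Within each group of 6 columns, the highest and the lowest value of each named probe were checked for a gap to the others, in 46 sets of values; 2 stood apart, and about 1 in 20 sets does so by chance (2.3 here). For AT1G08845/AT5G27820/AT3G20230, column 3 at 20 µE lay at 3.07 on the normalised log2 scale (7.55 units as deposited), against 3.40 to 3.59 in the other 5 columns of that group. For AT5G03320/AT3G09830, which rose, column 6 at 20 µE lay at 0.99 (1.70 units as deposited), against -0.61 to -0.21 in the other 5. The call of this probe held without that column.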

How the results depend on the processing

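The share of summed intensity moved by less than 1 SD with the 2 other rankings and without each column. Among the 60 probes 14 passed over couple means, and among all probes 873; in the same order, a threshold of 0.01 left 7 and 309, and leaving out couple 1, 2 or 3 of both groups left 0, 3 and 9 of the 60, and 32, 89 and 854 of all. Testing annotated probes only gave 381 calls in all (fewer probes). No normalisation gave 1765 calls in all, and median centring 43 and 1507. The 12 columns as independent gave 28 and 1686, without normalisation 28 and 2281, and with median centring 53 and 2066 (the last 2 chosen after seeing the data). With the replicate number as a block (replicate block), they gave 31 and 1827; couples of numbers as a block over couple means gave 15 and 1080, changed 1 call among the named probes, given above, and ended none of the 14. Without each column in turn 12 to 14 of the 60 passed. The median change of -0.14 was -0.22 when members were ranked by normalised level, -0.0075 without normalisation, 1.35 after median centring, -0.18, -0.22 and -0.17 without couple 1, 2 or 3, and -0.19 to -0.13 without each column in turn. Signs turned without normalisation for CSLC12/AT4G07950/AT4G07940 (0.089), AT5G51520/AT4G25250 (0.43) and AT5G08720/AT4G01650 (0.13). After median centring they turned for these 3 (1.45, 1.79 and 1.49), for AT1G59850/AT1G27210/AT5G62580/AT2G07170 (0.51), AT1G70160/AT5G54870/AT4G27020 (1.32), AT4G24026/AT4G10810 (0.54), AT1G08845/AT5G27820/AT3G20230 (0.88) and AT5G66000/AT4G35510/AT2G17540 (0.93), and for 3 probes that fell, UFO/AT5G15710 (0.046), AT1G01570/AT4G00295 (0.31) and AT5G03560/AT4G38150 (0.41), with the same values over the 12 columns. AT5G08720/AT4G01650, at -0.02, was also at 0.082 and 0.12 without couple 1 or 3 and -0.072 to 0.039 without each column. Of 667 alternative values for 23 named probes, 559 kept direction and side of the threshold, 60 lost the call, 17 gained it and 31 turned. The cause was not tested where none is named. The array's detection limits are unknown, which limits what can be said of second probes near 0.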
